A study of Mus musculus with 9 samples.

Results

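The expression of 10 genes that identify T cells and their checkpoints was measured by RNA sequencing in mouse back skin. They were the CD3 chain genes Cd3d, Cd3e and Cd3g, the zeta chain gene Cd247, the adaptor Lat, the coreceptors Cd4 and Cd8a, the regulatory T cell factor Foxp3, the costimulatory receptor Icos and the inhibitory receptor Ctla4. They were taken by gene symbol, and all 10 were present among the 29205 genes of the count table. Male BALB/c mice aged 6 to 8 weeks were shaved and depilated in all 3 groups, and skin was taken on day 13, with 3 libraries in each group and 9 in all. The control group received no cream. The IMQ group received 62.5 mg of 5% imiquimod cream a day for 5 days, and the LYS group received the same cream together with Longkui Yinxiao soup, an herbal decoction given by gavage at the higher dose of the study. Imiquimod is a Toll-like receptor agonist whose cream produces psoriasis-like lesions in mice. No group with LYS and no imiquimod was analysed here, so LYS was compared only on imiquimod-treated skin.

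T cells recognise antigen with a receptor whose antigen-binding chains have almost no cytoplasmic tail, so the signal is carried by the CD3 chains and the zeta chain and passed by kinases to the adaptor LAT. CD4 and CD8 bind MHC class II and class I molecules beside the receptor. ICOS strengthens the response of activated T cells, CTLA-4 competes with CD28 for its ligands and restrains the response, and FOXP3 directs the regulatory T cell programme. Mouse epidermis also holds resident gamma delta T cells, and dermal gamma delta T cells are a known source of IL-17 after imiquimod.

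Whole skin gave few reads on these genes. Library totals ranged from 14658645 to 19609878 counts, and the 10 genes together received 274 to 326 counts in the control libraries, 321 to 679 in the IMQ libraries and 745 to 1110 in the LYS libraries. The 8 keratin, collagen and decorin genes used to check the tissue summed to between 25742 and 49998 CPM in every library, where CPM are counts scaled to a common library size with edgeR's TMM factors, and no gene of that list was at 0 in any group. The TMM factors were 1.10 to 1.197 in control skin, 0.790 to 0.915 in IMQ skin and 0.978 to 1.10 in LYS skin. Single libraries weighed on the comparison of LYS with IMQ. Over all genes edgeR called 0 genes with the 6 libraries, 4262 of 15895 (26.8%) without LYS replicate 1, 1873 of 15840 (11.8%) without IMQ replicate 1, and 0 without any of the other 4 libraries.

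In GRCm38, Cd3g (chr9:44969572-44980431, minus strand), Cd3d (chr9:44981786-44987339, plus strand) and Cd3e (chr9:44998740-45009627, minus strand) were neighbours. Cd3g and Cd3d were divergent, with 1354 bp between them, and 11400 bp separated Cd3d from Cd3e. Ctla4 (chr1:60887000-60915832) and Icos (chr1:60977927-61000320) lay on the plus strand of chromosome 1, with 62094 bp between them. The remaining genes were Cd247 (chr1:165788681-165877277, plus), Cd4 (chr6:124864692-124888221, minus), Cd8a (chr6:71373427-71379173, plus), Foxp3 (chrX:7573644-7595245, plus) and Lat (chr7:126363824-126369570, minus). The kit did not mark strand, so within any shared exon the reads of a gene on the opposite strand cannot be told apart from a member's own. Genes on the opposite strand overlap Cd3e (Gm48719), Cd247 (Pou2f1 and 4 non-coding genes) and Foxp3 (Ppp1r3f, Ccdc22 and Gm36995). Overlap was taken over whole genes with their introns, and shared exons were not checked. On the same strand Cd3e, Cd247, Foxp3, Icos and Lat overlap non-coding or unconfirmed genes, and Ctla4 overlaps the pseudogene Rpl18-ps1.

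The 250 bp upstream of the RefSeq start (GRCm38.p6) are shown for the 3 CD3 genes, which moved together in these libraries, and for Ctla4, whose level relative to them differed most between groups. Each is written from 5′ to 3′ on the gene's own strand. Capitals mark GGAAA, the core bound by NFAT factors, on either strand. In Cd3d they also mark CTTTGNT, a match for TCF factors. In Cd3g they also mark AGATAA, a match for the GATA family. No marked matches overlap. The windows are Cd3d chr9:44981536-44981785 (plus), Cd3g chr9:44980432-44980681 (minus), Cd3e chr9:45009612-45009861 (minus) and Ctla4 chr1:60908775-60909024 (plus), the last of which lies before a RefSeq start 22025 bp inside the GENCODE gene.
Cd3d: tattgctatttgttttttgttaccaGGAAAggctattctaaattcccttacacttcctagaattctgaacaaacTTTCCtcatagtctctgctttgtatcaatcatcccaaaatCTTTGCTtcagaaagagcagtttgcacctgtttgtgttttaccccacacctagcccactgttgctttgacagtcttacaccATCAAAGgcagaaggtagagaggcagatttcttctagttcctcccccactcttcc
Cd3g: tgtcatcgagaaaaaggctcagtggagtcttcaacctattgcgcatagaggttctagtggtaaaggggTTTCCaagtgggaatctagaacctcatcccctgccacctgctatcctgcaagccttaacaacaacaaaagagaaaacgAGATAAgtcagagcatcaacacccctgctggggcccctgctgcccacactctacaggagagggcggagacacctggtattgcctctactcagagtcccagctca
Cd3e: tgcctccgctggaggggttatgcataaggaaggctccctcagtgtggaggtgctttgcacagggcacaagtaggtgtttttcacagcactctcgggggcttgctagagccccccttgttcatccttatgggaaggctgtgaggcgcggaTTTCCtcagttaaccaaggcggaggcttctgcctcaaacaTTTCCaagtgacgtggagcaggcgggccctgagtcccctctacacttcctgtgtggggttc
Ctla4: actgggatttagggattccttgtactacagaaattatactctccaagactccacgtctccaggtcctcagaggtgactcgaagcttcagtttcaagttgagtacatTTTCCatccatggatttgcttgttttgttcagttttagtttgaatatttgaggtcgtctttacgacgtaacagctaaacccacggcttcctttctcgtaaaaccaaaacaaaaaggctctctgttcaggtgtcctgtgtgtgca

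A window was found for 8 of the 10 genes, all but Cd4 and Icos. GGAAA was present in 7 of these 8 windows and in 55.6% of all 32851 windows of the same length. CTTTGNT was present in 3 of 8 and in 16% of all windows, and AGATAA in 1 of 8 and in 9.99%. The RUNX letters TGTGGT and the AP-1 letters TGANTCA were in 0 of 8 windows, against 14% and 6.75% of all windows. A match is a description of the letters, and a window without one says nothing about the factor.

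**Figure D1:**
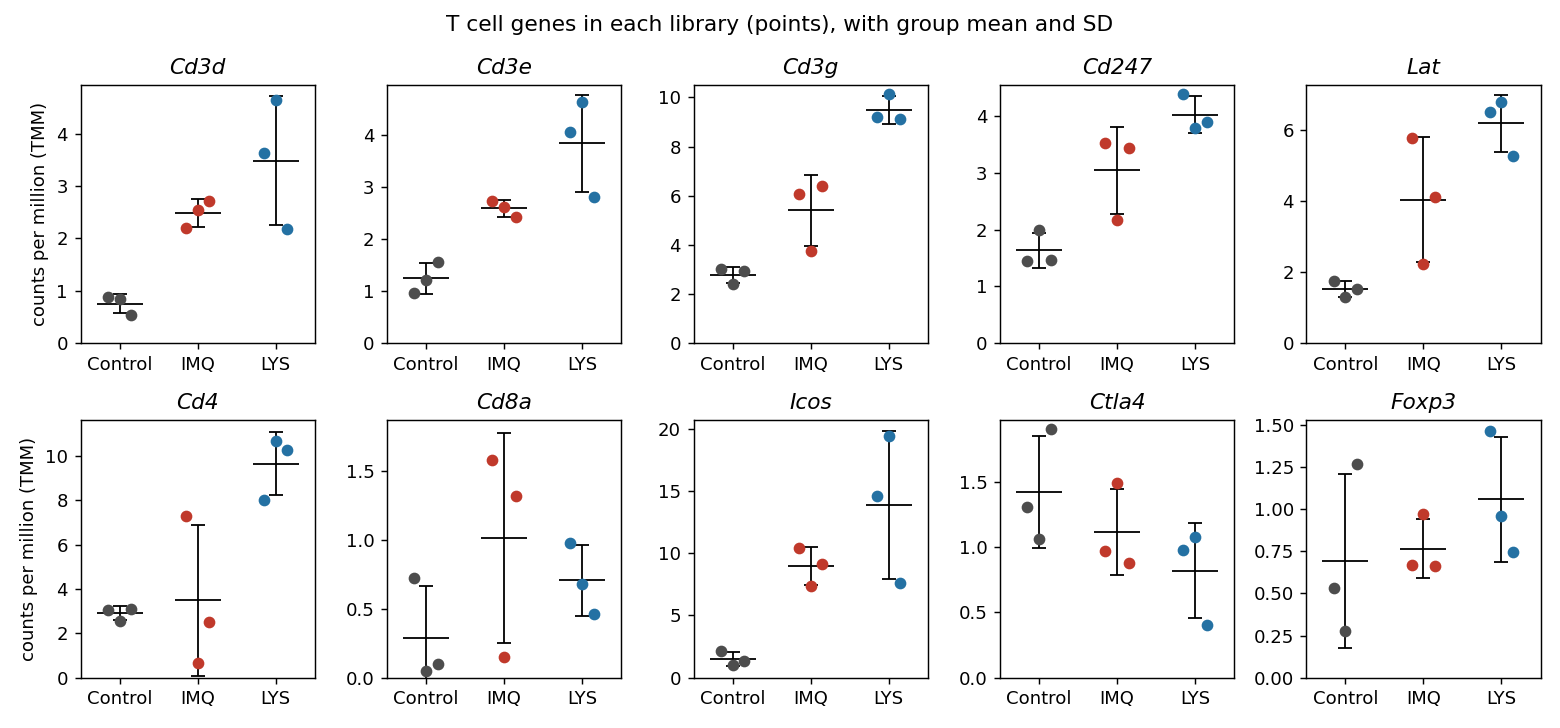
Level of each of the 10 genes in CPM (TMM scaled, vertical axis from 0, its own range in each panel) in the control, IMQ and LYS groups. Points are libraries, and the marks with bars are the mean and SD of 3 libraries. The LYS libraries lie above all control libraries for 7 genes, while Cd8a, Foxp3 and Ctla4 overlap.

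The CD3 chains, which bring the receptor to the cell surface and carry its signal, were lowest in the control group and highest in the LYS group on average. Cd3d had 18, 18 and 11 counts in the control libraries, 36, 34 and 37 in the IMQ libraries and 52, 82 and 38 in the LYS libraries. These gave 0.746 ± 0.183, 2.48 ± 0.266 and 3.48 ± 1.24 CPM (SD, n = 3 in each group). No control library reached an IMQ or LYS library, while LYS replicate 3 (2.181 CPM) lay just below the lowest IMQ library (2.189 CPM).

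Cd3e had 20, 26 and 32 counts in control skin, 45, 35 and 33 in IMQ skin and 58, 82 and 49 in LYS skin. Its level was 1.24 ± 0.299, 2.59 ± 0.159 and 3.83 ± 0.932 CPM (SD, n = 3), with no overlap between any groups. Cd3g had 62, 52 and 60 counts, then 100, 50 and 87, then 132, 179 and 159. In CPM these were 2.78 ± 0.323, 5.40 ± 1.45 and 9.49 ± 0.551 (SD, n = 3), and again the 3 groups did not overlap. Cd247, which encodes the zeta chain, had 30, 43 and 30 counts in control skin, 58, 29 and 47 in IMQ skin and 63, 67 and 68 in LYS skin. Its level was 1.63 ± 0.307, 3.04 ± 0.766 and 4.03 ± 0.325 CPM (SD, n = 3). The groups were separate for this gene too, although IMQ replicate 2 was only a little above the highest control library (2.16 against 1.99 CPM).

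Lat, the membrane adaptor on which the receptor signal branches, had 36, 28 and 31 counts in control skin, 95, 30 and 56 in IMQ skin and 93, 120 and 92 in LYS skin. It measured 1.52 ± 0.223, 4.04 ± 1.77 and 6.19 ± 0.799 CPM (SD, n = 3). IMQ replicate 1 lay among the LYS libraries, and all control libraries were below the rest.

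Of the coreceptors, Cd4 was widely spread in the IMQ group. It had 63, 55 and 64 counts in control skin, 120, 9 and 34 in IMQ skin and 115, 189 and 179 in LYS skin. Its level was 2.90 ± 0.314, 3.49 ± 3.42 and 9.67 ± 1.43 CPM (SD, n = 3). The IMQ libraries lay on both sides of the control range, and every LYS library was above every other library. Cd8a was at the limit of the depth, with 15, 1 and 2 counts in control skin, 26, 2 and 18 in IMQ skin and 14, 12 and 8 in LYS skin. Its spread within the control group (0.290 ± 0.378 CPM) was as large as its level, and the 3 groups overlapped.

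Foxp3, the defining transcription factor of regulatory T cells, had 11, 6 and 26 counts in control skin, 11, 13 and 9 in IMQ skin and 21, 17 and 13 in LYS skin. Its level of 0.692 ± 0.514, 0.766 ± 0.176 and 1.06 ± 0.370 CPM (SD, n = 3) overlapped between all groups.

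Icos and Ctla4 are both receptors of the CD28 family. Icos had 44, 22 and 28 counts in control skin, 172, 99 and 125 in IMQ skin and 209, 343 and 132 in LYS skin, or 1.50 ± 0.568, 9.0 ± 1.55 and 13.9 ± 5.95 CPM (SD, n = 3). The IMQ and LYS libraries were all above the control libraries and overlapped each other. Ctla4 had 27, 23 and 39 counts in control skin, 16, 20 and 12 in IMQ skin and 14, 19 and 7 in LYS skin, or 1.42 ± 0.431, 1.11 ± 0.329 and 0.818 ± 0.364 CPM (SD, n = 3). It was the only one of the 10 genes whose mean CPM was lower in both cream-treated groups than in the control group, and its groups overlapped.

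Per length of transcript, in FPKM, which divide the counts by gene length and library total, the order of the 10 genes changed between groups. Cd3g was highest in the control group (0.976) and Cd8a lowest (0.091). In the IMQ group Icos was highest (2.21), followed by Cd3g (1.39) and Lat (1.25), and Foxp3 was lowest (0.139). In the LYS group the order was Icos (4.18), Cd3g (3.03), Cd4 (2.51), Lat (2.33), Cd3d (1.99), Cd3e (0.976), Cd247 (0.787), Ctla4 (0.362), Foxp3 (0.238) and Cd8a (0.199). Ctla4 ranked 3rd in the control group and 8th in both other groups. Most neighbours in these orders overlapped over the 3 libraries. The exceptions were 2 of the 9 neighbouring pairs in the LYS group, Cd3d above Cd3e and Cd247 above Ctla4.

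The first comparison asked what imiquimod did to these genes. The 4 signalling chains, Lat and Icos rose, and Cd4, Cd8a, Foxp3 and Ctla4 did not pass the test. Genes were called with edgeR's quasi-likelihood test at a Benjamini-Hochberg adjusted p below 0.05 with a log2 fold change of more than 0.58 in size. By this rule 6 of the 10 genes (60%) were called higher and 0 lower, where 51% of all 15976 genes tested were called, 24.1% higher and 26.9% lower. The median log2 fold change was 1.001 over the 10 genes and -0.06 over all genes tested. The same 6 genes had CPM ranges in the IMQ group above and apart from those of the control group, as 34.1% of all genes did. In bulk skin, a change in the number of cells that express these genes, T cells or others, and a change in RNA per cell cannot be told apart.

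Icos changed most, by 2.58 ± 0.31 on the log2 scale (SE, edgeR adjusted p = 0.00026), followed by Cd3d (1.71 ± 0.32, edgeR adjusted p = 0.0023). Lat rose by 1.42 ± 0.38 (edgeR adjusted p = 0.012), Cd3e by 1.05 ± 0.30 (0.016), Cd3g by 0.95 ± 0.28 (0.017) and Cd247 by 0.89 ± 0.31 (0.036). The call of Cd247 was lost without control replicate 1 or 3 or IMQ replicate 1 or 3, that of Cd3e without control replicate 1 or 2 and that of Cd3g without control replicate 2, while Icos, Cd3d and Lat kept theirs without any single library. With no scaling beyond library totals, where the median over all genes tested fell to -0.51, Icos and Cd3d alone kept their calls. The other differences were 0.29 ± 0.65 for Cd4 (edgeR adjusted p = 0.72), 0.13 ± 0.57 for Foxp3 (0.85), -0.37 ± 0.38 for Ctla4 (0.42) and 1.82 ± 0.97 for Cd8a (0.14). Cd8a was called without control replicate 1, the library with 15 of the 18 control counts (3.71, edgeR adjusted p = 0.032). Without IMQ replicate 1, which held 120 of the 163 Cd4 counts of its group, the Cd4 difference was -0.86 (edgeR adjusted p = 0.16). The differences of Cd4 and Foxp3 turned negative without scaling as well, to -0.11 and -0.33.

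**Figure D2:**
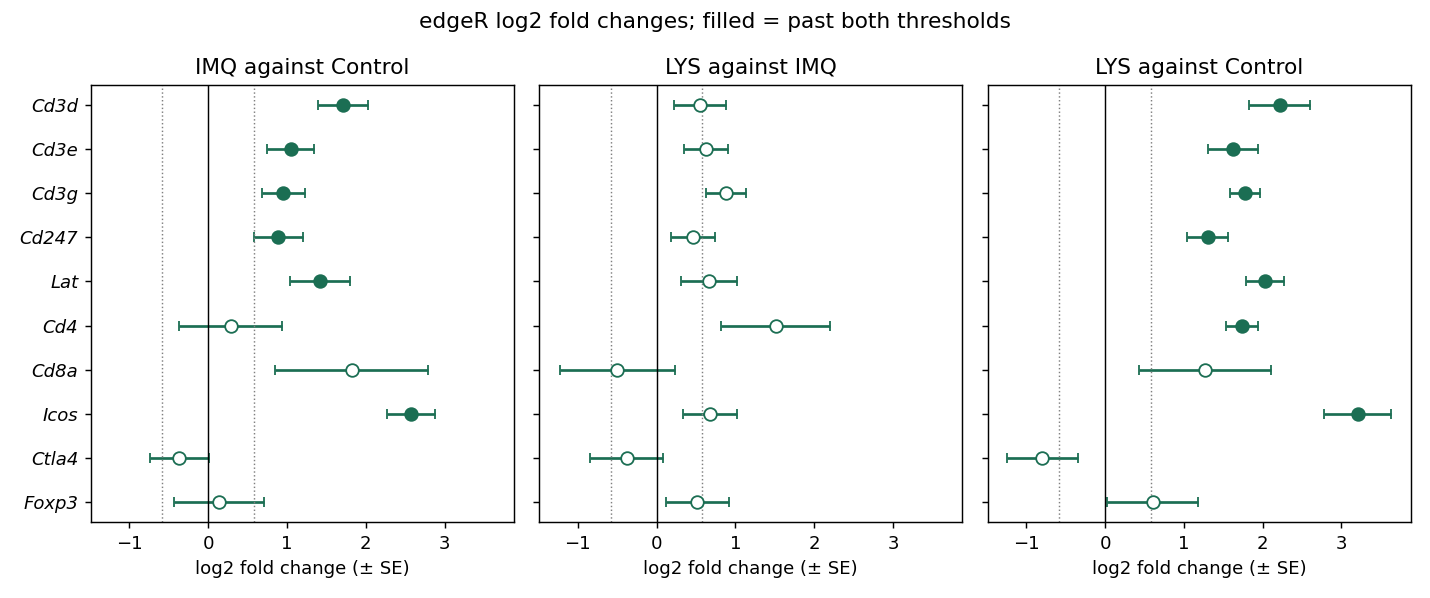
Log2 fold change of each gene (horizontal axis, bars are SE) in the 3 comparisons, with dotted lines at 0.58 on either side of 0. Filled points passed both thresholds, which was so for 6 genes in IMQ against control, 0 in LYS against IMQ and 7 in LYS against control.

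The second comparison asked what LYS did to skin that also received imiquimod. None of the 10 genes returned towards the control level by a called change, but edgeR called no gene at all here. Of the 10, 8 had a mean difference above 0, against 52.9% of all genes tested. For the 6 genes imiquimod had raised, this was away from the control group. The IMQ libraries are shared with the first comparison. With edgeR 0 of the 10 genes were called, and 0% of the 15460 genes tested were called. At an unadjusted p under 0.05, 1 of the 10 genes was higher (Cd3g) and 0 lower, while 19.3% of all genes (2978) were higher and 15.9% (2457) lower. DESeq2 on the same 6 libraries called 1 of the 10 genes higher, again Cd3g, and 21.8% of all genes (3366) in either direction, 12.6% higher. With all 9 libraries in the fit, edgeR called 1 of the 10 genes higher, against 9.93% of all genes, and DESeq2 called 2 (Cd3g and Cd4), against 14.2%. The median difference was 0.59 over the 10 genes and 0.04 over all genes tested.

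Cd3g was 0.88 ± 0.25 higher in the LYS group (log2, SE; edgeR adjusted p = 0.072), and DESeq2 gave 0.86 with an adjusted p of 0.011. Cd4 was 1.51 ± 0.69 higher (edgeR adjusted p = 0.16), with the spread of the IMQ group behind the error, and without IMQ replicate 1 it was called (2.66, edgeR adjusted p = 0.044). The other CD3 chains differed by 0.55 ± 0.33 for Cd3d, 0.63 ± 0.28 for Cd3e and 0.46 ± 0.28 for Cd247, with edgeR adjusted p values of 0.27, 0.15 and 0.27. Icos (0.68 ± 0.34, edgeR adjusted p = 0.20), Lat (0.67 ± 0.36, 0.22) and Foxp3 (0.52 ± 0.40, 0.38) were of like size. Ctla4 (-0.38 ± 0.46, edgeR adjusted p = 0.58) and Cd8a (-0.50 ± 0.73, 0.65) were the 2 genes with a negative difference. CPM ranges of the LYS group were above and apart from those of the IMQ group for 4 genes, Cd3e, Cd3g, Cd247 and Cd4, as for 16.8% of all genes tested.

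The third comparison set the LYS group against the control group, whose libraries are shared with the first. Cd4 joined the 6 genes that imiquimod had raised, so that 7 of 10 (70%) were called higher and 0 lower by edgeR, where 28% of all 16003 genes tested were called, 15.1% higher and 12.9% lower. The median was 1.68 over the 10 genes and -0.01 over all genes tested. The 7 genes also had CPM ranges above and apart from the control group, as 25% of all genes did. Icos rose by 3.21 ± 0.43 (log2, SE; edgeR adjusted p = 0.0022), Cd3d by 2.22 ± 0.39 (0.0056), Lat by 2.03 ± 0.24 (0.0015), Cd3g by 1.78 ± 0.20 (0.0011), Cd4 by 1.74 ± 0.21 (0.0015), Cd3e by 1.62 ± 0.32 (0.0088) and Cd247 by 1.30 ± 0.26 (0.0088). These 7 were called whichever single library was left out. Cd8a (1.26 ± 0.84, edgeR adjusted p = 0.28), Foxp3 (0.61 ± 0.58, 0.45) and Ctla4 (-0.79 ± 0.45, 0.21) did not pass. Without control replicate 1, Cd8a was called here too (3.16, edgeR adjusted p = 0.036).

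Because the CD3 chains differed between groups, the reads of each remaining gene were also set against the geometric mean of the Cd3d, Cd3e and Cd3g reads of the same library, a ratio in which depth and scaling cancel. Icos stood at 0.63, -0.39 and 0.01 (log2 ratio) in the control libraries, 1.65, 1.33 and 1.39 in the IMQ libraries and 1.50, 1.68 and 0.98 in the LYS libraries. Both cream-treated groups were above the control group, by 1.37 and 1.30, and differed from each other by -0.07. Ctla4 stood at -0.06, -0.33 and 0.48 in the control libraries, -1.74, -0.95 and -1.94 in the IMQ libraries and -2.35, -2.45 and -3.16 in the LYS libraries, so that none of the groups overlapped. Its difference was -1.57 for IMQ against control, -2.69 for LYS against control and -1.12 for LYS against IMQ. The level of Ctla4 itself did not pass the test in any comparison, so the ratio shows only that Ctla4 and the CD3 chains changed unequally.

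With 3 against 3 libraries the exact two-sided permutation test cannot give a p below 0.1. This smallest value was reached by 6 of the 21 ratios, namely both cream-treated groups against control for Icos, all 3 comparisons for Ctla4, and LYS against control for Cd247 (-0.54). After Benjamini-Hochberg adjustment over the 21 tests these exact p values were 0.35. The same ratio was not computed for genes outside the set, so how usual such a separation is cannot be told. The mean Foxp3 ratio was -1.199 ± 1.05 in control skin, -2.05 ± 0.43 in IMQ skin and -2.24 ± 0.42 in LYS skin (SD, n = 3), with overlapping ranges. Lat kept within 0.15 ± 0.20, 0.22 ± 0.58 and 0.32 ± 0.14, and Cd4 was 1.08 ± 0.15, -0.47 ± 1.59 and 0.96 ± 0.41 (SD, n = 3), with the IMQ group low and widely spread.

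**Figure D3:**
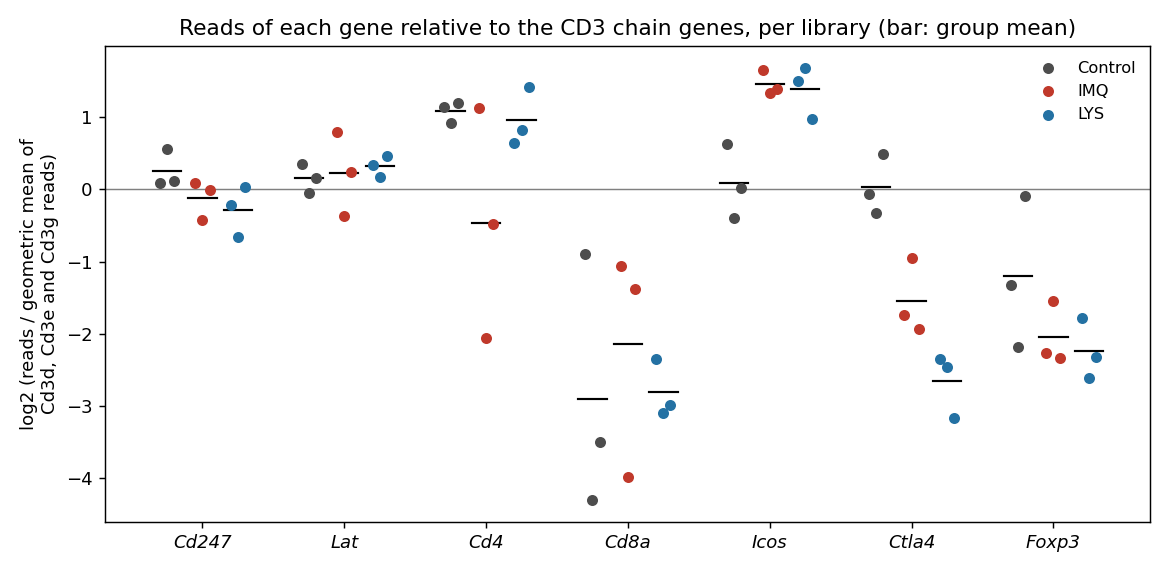
Log2 ratio of the reads of 7 genes to the geometric mean of the Cd3d, Cd3e and Cd3g reads (vertical axis) in each library, coloured by group, with a bar at the group mean of 3 libraries. Icos lies above the control libraries in the IMQ and LYS groups, and Ctla4 steps down from control to IMQ to LYS without overlap.

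Over the 9 libraries the 4 CD3 complex genes varied together, with Pearson r of log2(CPM + 1) from 0.856 to 0.936 for their 6 pairs. The points share 3 groups, and after group means were subtracted the same pairs gave -0.014 to 0.586. Cd3g and Lat gave 0.97 and so did Cd3d and Icos. Ctla4 was negative with Cd3d (-0.43), Cd3e (-0.36), Cd3g (-0.65), Cd247 (-0.73), Lat (-0.61), Icos (-0.44), Cd4 (-0.59) and Cd8a (-0.40). It was positive with Foxp3 (0.27). After group means were subtracted, Ctla4 gave positive values with Cd3d (0.44), Cd3e (0.79), Icos (0.48) and Foxp3 (0.82). Its values stayed negative with Cd3g (-0.23), Cd247 (-0.55), Lat (-0.15), Cd4 (-0.34) and Cd8a (-0.26). These values are descriptions. The 10 genes outside the set whose log2(CPM + 1) was most like the mean of Cd3d, Cd3e and Cd3g over the 9 libraries were Tlr6 (r = 0.981), Cabin1 (0.979), Cxcr6 (0.977), Il23r (0.976), Blk (0.976), Cic (0.975), Cd163l1 (0.971), Csf2rb (0.970), Adgrg5 (0.969) and Zap70 (0.968). After group means were subtracted, the order was led by B230307C23Rik (0.976), Gm24474 (0.972) and Gm960 (0.958), and none of the first 10 was in both rankings.

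Further genes of T cells and of other skin cells were read as lists, and each count below stands against the same background of all genes tested. With edgeR these were 24.1% called higher and 26.9% lower for IMQ against control, 15.1% and 12.9% for LYS against control, and, at an unadjusted p under 0.05, 19.3% higher and 15.9% lower for LYS against IMQ. For LYS against IMQ no listed gene was called by edgeR with all 6 libraries. Without LYS replicate 1, when 14.9% of all genes were called higher, 8 of 22 signalling genes, 4 of 12 genes associated with regulatory T cells, 3 of 12 gamma delta genes, 6 of 7 mast cell genes and 5 of 10 macrophage and dendritic cell genes were called higher, and 0 to 4 genes of each other list. Without IMQ replicate 1, when 6.8% of all genes were, these counts were 1 of 22, 1 of 11, 1 of 12, 5 of 7 and 2 of 10, and again 0 to 4 in each other list. Over both fits, up to 4 of the 8 keratin, collagen and decorin genes were called higher and up to 2 lower. Of the NK and cytotoxic genes, up to 4 were called higher and none lower.

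The receptor's antigen-binding chains were measured through 7 constant genes. Of these, 4 rose with imiquimod and 0 fell by edgeR, with a median of 1.09, and the 4 became 2 without control replicate 1 or 2. They were Trbc2, a constant gene of the beta chain (1.29 ± 0.23, edgeR adjusted p = 0.0017), and the gamma and delta constant genes Tcrg-C1 (1.50 ± 0.38, 0.010), Tcrg-C2 (1.33 ± 0.38, 0.017) and Trdc (0.78 ± 0.28, 0.039). Between LYS and IMQ, none was called. The gamma and delta genes Tcrg-C1 (53, 29 and 53 counts against 86, 113 and 116) and Trdc (65, 37 and 41 against 88, 138 and 83) were higher in every LYS library, with differences of 1.10 ± 0.28 and 1.003 ± 0.281 and edgeR adjusted p values of 0.061 and 0.068. The difference of the beta chain gene Trbc2 was -0.13 ± 0.22 (edgeR adjusted p = 0.69) and that of the alpha chain gene Trac was 0.35 ± 0.46 (0.61). The gamma constant genes Tcrg-C2 (0.15 ± 0.37, edgeR adjusted p = 0.79) and Tcrg-C4 (0.13 ± 0.53, 0.88) had smaller differences than Tcrg-C1, and differences between chains were not tested. Against control, 4 of the 7 were called higher in the LYS group and 0 lower, and 2 without control replicate 1 or 2 or LYS replicate 2.

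Genes of gamma delta and dendritic epidermal T cells, of which 4 are constant genes given above, rose in 7 of 11 tested members with imiquimod and fell in 1 (median 1.33). The summed CPM of the whole list did not rise with imiquimod. It was 166 to 202 in control skin, 165 to 188 in IMQ skin and 238 to 355 in LYS skin. Cd163l1, a scavenger receptor of gamma delta T cells, rose from 45, 40 and 20 counts to 267, 135 and 241 (3.13 ± 0.34, edgeR adjusted p = 0.00017), and LYS libraries had 456, 602 and 499. The kinase gene Blk rose by 2.93 ± 0.32 (edgeR adjusted p = 0.00016) and 5830411N06Rik by 2.39 ± 0.40 (0.0013). Sox13, a transcription factor of this lineage that other skin cells also express, fell by 1.36 on the log2 scale (edgeR adjusted p = 0.0027). Between LYS and IMQ 7 of 12 were higher at an unadjusted p under 0.05 and 0 lower, none of them called, with Cd163l1 at 1.17 ± 0.23 (edgeR adjusted p = 0.059). Against control, 9 of 12 were called higher in the LYS group and 0 lower.

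The proximal signalling list holds the kinases, adaptors and phosphatases that act just below the receptor. With imiquimod 9 of 21 tested genes rose and 2 fell (median 0.47), where 24.1% and 26.9% of all genes did, and 1 fell without control replicate 1 or IMQ replicate 3. The largest evidence was for the kinase gene Prkcq (2.33 ± 0.16, edgeR adjusted p = 2.3e-05) and the Ras activator Rasgrp1 (2.89 ± 0.21, 2.9e-05), followed by Plcg1 and Csk (0.71 ± 0.10 and 0.79 ± 0.12, edgeR adjusted p values of 0.00059 and 0.00077). These 4 had from 163 to 1889 counts in the control and IMQ libraries, more than any CD3 gene had there, and they are also expressed outside T cells. Zap70, the kinase that binds the phosphorylated chains, had 35, 21 and 23 counts in control skin, 50, 41 and 58 in IMQ skin and 94, 99 and 73 in LYS skin. Its rise with imiquimod was 1.44 (edgeR adjusted p = 0.0052). The kinase LCK phosphorylates the chains before ZAP-70 binds, and its gene was one of the 2 that fell, the other being the adaptor gene Pag1. Both are named after their values were seen. Lck had 111, 90 and 100 counts in control skin, 44, 19 and 39 in IMQ skin and 70, 104 and 58 in LYS skin. It fell by 1.05 on the log2 scale with imiquimod (edgeR adjusted p = 0.018), opposite to Zap70, and differed by 1.07 between LYS and IMQ (0.092). Between LYS and IMQ 9 of 22 were higher and 2 lower at an unadjusted p under 0.05, none called, among them the leukocyte phosphatase Ptprc (1.21 ± 0.20, edgeR adjusted p = 0.059) above 0 and Prkcq (-1.10 ± 0.22, 0.059) below it. Against control, 12 of 22 were called higher in the LYS group and 0 lower.

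Costimulatory and checkpoint receptors other than Icos and Ctla4 were mixed. With imiquimod 5 of 14 rose and 3 fell, with a median of -0.02, against 24.1% and 26.9% of all genes. The number that rose was 4 whichever single library was left out. Without control replicate 1 the number that fell was 0, and without IMQ replicate 2 it was 1. The inhibitory receptor gene Pdcd1, which encodes PD-1, rose from 5, 11 and 7 counts to 56, 33 and 44 (3.02 ± 0.38, edgeR adjusted p = 0.00031). Cd5, an inhibitory surface receptor, rose by 2.30 ± 0.31 (edgeR adjusted p = 0.00045), Havcr2, which encodes TIM-3, by 1.75 ± 0.24 (0.00049), and the costimulatory receptor gene Tnfrsf9 by 1.47 ± 0.28 (0.0024). Between LYS and IMQ 1 was higher and 1 lower at an unadjusted p under 0.05, Cd226 (1.40 ± 0.47) and Cd5 (-0.85 ± 0.29), with edgeR adjusted p values of 0.090 and 0.091. LYS libraries had 83, 72 and 56 counts of Pdcd1, a difference from IMQ of 0.58 (edgeR adjusted p = 0.21). In the LYS group 5 of 14 were called higher than control and 0 lower. The 5 became 1 without control replicate 1 or 2 or LYS replicate 2, and 3 without control replicate 3 or LYS replicate 1.

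Of 11 tested ligands 4 rose with imiquimod and 2 fell (median 0.42). Cd274, which encodes PD-L1, rose by 2.32 ± 0.29 (edgeR adjusted p = 0.00030) and Cd80, a ligand of CD28 and CTLA-4, by 2.23 ± 0.34 (0.00079), while Lgals9, a ligand of TIM-3, fell by 0.94 on the log2 scale (0.00028). The ICOS ligand gene Icosl had 318, 280 and 255 counts in the IMQ group and 295, 454 and 470 in the LYS group, a difference of 0.38 ± 0.16 (edgeR adjusted p = 0.13). Between LYS and IMQ 3 were higher at an unadjusted p under 0.05 and 0 lower, none called, led by Tnfrsf14 (1.67 ± 0.38, edgeR adjusted p = 0.059). The LYS group had 3 called higher and 1 lower than control, the latter 0 without control replicate 1 or 2 or LYS replicate 1.

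Of 11 tested genes associated with regulatory T cells, 3 rose with imiquimod and 0 fell (median 0.39), a share of rises close to the 24.1% of all genes, and 1 fell without IMQ replicate 3. The 3 were Lrrc32, which anchors latent TGF-beta (1.22 ± 0.17, edgeR adjusted p = 0.00052), the integrin gene Itgae (1.18 ± 0.21, 0.0018) and the transcription factor Ikzf2 (1.06 ± 0.21, 0.0029). Between LYS and IMQ 6 of 10 were higher at an unadjusted p under 0.05 and none was called, led by Tgfb1 (0.98 ± 0.15, edgeR adjusted p = 0.059) and the IL-2 receptor gene Il2ra (0.999 ± 0.233, 0.059). Against control, 6 of 11 were called higher in the LYS group and 0 lower. All of the genes named here are expressed in skin cells other than regulatory T cells as well.

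T lineage transcription factors gave 4 rises and 1 fall among 11 tested with imiquimod (median 0.34), with Bcl11b at 2.07 ± 0.16 and Lef1 at -4.60 ± 0.44 (edgeR adjusted p values of 4.2e-05 and 8.6e-05). Lef1 had 421, 359 and 563 counts in the control group and 8, 23 and 7 in the IMQ group, and is also a factor of the hair follicle. LYS against IMQ gave 2 higher and 1 lower at an unadjusted p under 0.05, none called, and LYS against control 4 called higher and 1 lower of 12. The 1 fall became 2 without control replicate 1 or IMQ replicate 2 or 3 and 3 without IMQ replicate 1, and the 4 higher in the LYS group became 2 without control replicate 1 or 2. Of the 9 other T lineage surface genes, 4 rose with imiquimod and 2 fell (median 0.57). Cxcr6, a receptor of tissue-resident T cells, rose by 2.54 ± 0.27 (edgeR adjusted p = 0.00015), and Thy1, which fibroblasts also express, fell by 2.27 on the log2 scale (0.00038). LYS against IMQ gave 3 higher and 0 lower at an unadjusted p under 0.05, none called, and LYS against control 3 called higher and 1 lower, with 5 higher without LYS replicate 3.

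Markers of other cell types moved between the groups as well. Summed CPM of 7 mast cell genes was 184 to 299 in control skin, 71.3 to 106 in IMQ skin and 143 to 260 in LYS skin, and 6 of the 7 fell with imiquimod. Macrophage and dendritic cell genes summed to 656 to 943, 439 to 575 and 688 to 1562 CPM, with 2 of 10 called higher and 2 lower in the IMQ group, and 1 higher without control replicate 1 or 2 or IMQ replicate 3. NK and cytotoxic genes summed to 18.5 to 31.6, 10.96 to 17.3 and 21.3 to 29.2 CPM, with 0 of 8 called higher and 2 lower, where 26.9% of all genes were lower. The 2 became 4 without IMQ replicate 1 and 1 without control replicate 1 or 3 or IMQ replicate 2 or 3.

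From IMQ to LYS, mast cell genes were higher in 6 of 7, macrophage and dendritic cell genes in 5 of 10 and NK and cytotoxic genes in 3 of 8 at an unadjusted p under 0.05, with 0 lower and none called. Skeletal muscle genes summed to 7492 to 8218 CPM in control skin, 1322 to 3449 in IMQ skin and 3288 to 6943 in LYS skin, with 4 of 4 lower with imiquimod. B cell genes summed to 3.52 to 5.37, 4.11 to 8.42 and 4.75 to 15.2 CPM, and 1 of the 2 tested rose with imiquimod. Group 2 innate lymphoid genes summed to 13.4 to 14.3, 19.0 to 23.6 and 18.4 to 25.4 CPM, with 2 of 4 higher and 2 lower, the former 1 without control replicate 1 and the latter 1 without any single library but IMQ replicate 1. In the list of keratin, collagen and decorin genes 4 of 8 rose with imiquimod and 4 fell. No gene of any of these lists was at 0 in a whole group, and their part in the differences of the 10 T cell genes was not tested.

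**Figure D4:**
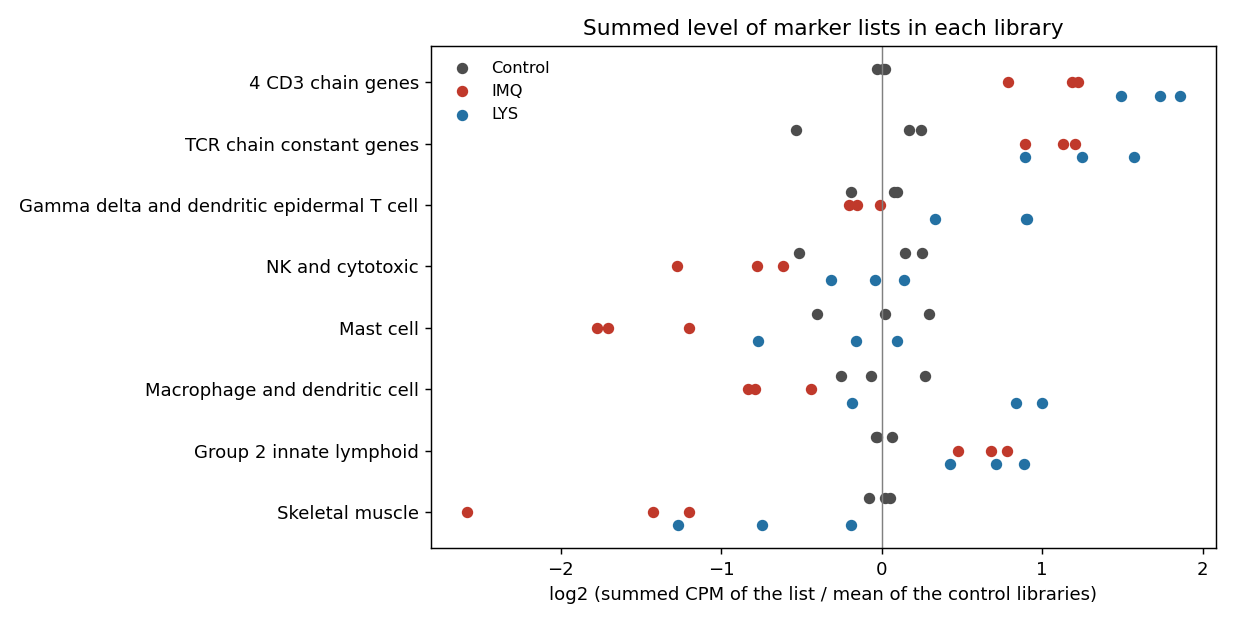
Summed CPM of each marker list in each library, as log2 of its ratio to the mean of the control libraries (horizontal axis), with points coloured by group. The mast cell list lies lowest in the IMQ libraries, while for the muscle list the IMQ and LYS libraries overlap below the control libraries. The list of T cell receptor constant genes lies above all control libraries in the IMQ and LYS libraries. For the gamma delta and dendritic epidermal list the IMQ libraries overlap the control libraries, and the LYS libraries lie above both.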

How the data were processed

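RNA of back skin was sequenced by the study on an Illumina HiSeq instrument from NEBNext Ultra libraries. The submitters' processing notes name HISAT2, HTSeq 0.13.5 and GRCm38. The authors deposited 1 table with raw read counts per gene, not normalized, and FPKM per gene, which use the exon length of GENCODE M21 for all 10 genes. No table column was without a sample. Strand setting of the counting is not given in the sources used here.

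Genes were tested with edgeR 4.0.16 in R 4.3.3 (TMM, filterByExpr, quasi-likelihood test, Benjamini-Hochberg over all genes tested) on the 6 libraries of each comparison. A gene was called when its adjusted p was under 0.05 and its log2 fold change exceeded 0.58 in size, which are the study's thresholds. The study does not name its test tool. Unlike edgeR here, it reported genes called in both directions for LYS against IMQ. All 10 genes passed the filter on low counts in all 3 comparisons. Alternatives were DESeq2 1.42.0, other scaling, filters and thresholds, all 9 libraries in a single fit, limma 3.58.1 on log2(FPKM + 1), a replicate block and leaving out each library. DESeq2 on all 9 libraries was added after the data had been seen. Ratios added 0.5 to each count. The scripts were tested on simulated data. Plots used Python 3.11.15 with matplotlib 3.10.9.

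Within groups, every pair of libraries differed beyond sampling noise (chi-square over its degrees of freedom 16.9 to 100), so none was a repeat deposit. The study's methods describe samples drawn from mice of each group, but no label ties a library to an animal, and p values measure the spread between these libraries. The 10 genes and the 15 further gene lists were chosen with earlier results of these data known. From each list at most 4 genes are named per comparison, those called with the smallest p or, where none was called, with the smallest unadjusted p, and their values may be given in the other comparisons too. Zap70 was named as a gene of like pattern, and Tcrg-C4, Lck and Pag1, outside this rule, after their values were seen. The values of 1 listed gene are not given here, though it counts in its list. Genes of like pattern needed a mean of at least 1 CPM. Of 169 listed genes, 162 matched by symbol, 6 by Ensembl ID, and 1 was not matched. Upstream sequences are from RefSeq.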

Additional observations from a re-analysis of the deposited data

How the results depend on the processing

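Against control, the IMQ group had 6 called genes among the 10, which became 2 with no scaling beyond library totals (Icos and Cd3d) and 1 with limma on log2(FPKM + 1). Without scaling the median over all genes tested moved from -0.06 to -0.51, so that changes are relative to it, and the list medians turned negative for ligands (-0.02), regulatory T cell genes (-0.06) and T lineage factors (-0.11), the last with 3 genes called higher and 5 lower. Leaving out each library gave 4 to 6. LYS against IMQ had 0, which became 1 with DESeq2 and 1 when edgeR fitted all 9 libraries together (Cd3g in both). DESeq2 on all 9 libraries called 2 (Cd3g and Cd4), and leaving out each library gave 0 to 1. The 1 was Cd4 without IMQ replicate 1, when 6.8% of all genes were called higher. Without LYS replicate 1, when 14.9% were, none of the 10 genes was called. LYS against control had 7, and 7 to 8 with each library left out. The number of ratios whose groups did not overlap was 6 of 21, and 6 to 9 with each library left out. No share over all genes is available to set beside it. With Cd3e alone as the denominator, the separation of Cd247 in LYS against control was lost (-0.30, exact permutation p = 0.4). Those of Icos and Ctla4 were kept. Among the log2 fold changes of the 10 genes, signs turned only for 2 genes, neither of them called. For Cd4 in IMQ against control, the difference was -0.11 with no scaling, -0.13 with the replicate block, -0.14 with limma and -0.86 to 0.77 with each library left out. For Foxp3 it was -0.33 with no scaling, -0.041 with limma, and -0.25 to 0.90 with each library left out, including -0.03 without control replicate 1 and -0.05 without IMQ replicate 2. The cause was not tested.

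Replicate numbers did not pair the libraries: same-numbered libraries deviated together with r from -0.460 to 0.20 over 9 pairs. With the replicate block 6, 0 and 7 genes were called in IMQ against control, LYS against IMQ and LYS against control. In the first, Cd247 was not called (edgeR adjusted p = 0.080) and Cd8a was (1.95, edgeR adjusted p = 0.043). Depth limits Cd8a, Foxp3 and Ctla4 most, with 1 to 39 counts in a library.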
